A study of Mus musculus with 12 samples.

Results

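The 55 genes described here encode the machinery that segregates chromosomes and divides the cell: the kinases and cyclins of the G2 to M transition, the spindle checkpoint, centromere and kinetochore proteins, kinesins, cytokinesis factors, condensin subunits, and the transcription factors and proliferation antigen that accompany them. They were taken by symbol from the 45777 genes of the deposited table, with no measured value in the rule, and all 55 were found. RNA was sequenced from CD4+ T cells isolated with magnetic beads from the spleens of normal wild type C57BL/6 mice, whose age is labelled as 7 weeks (the study's methods give a somewhat older range). Each of the 4 groups held 3 samples, and the cells of every group were activated with anti-CD3 (0.5 µg/ml) for 3 days. Control cultures received anti-CD3 without either drug, and the others received metformin, FK506 (tacrolimus, which blocks the phosphatase calcineurin downstream of the T cell receptor) or both drugs (Metformin+FK506, called the combination here). The study's methods also list soluble anti-CD28 for T cell activation, which the labels do not mention, and no drug dose was given for these cultures in the sources used here. The labels do not say whether the 3 samples of a group came from separate mice or cultures, so the p-values measure the spread between these samples, which may be technical.

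T cells that receive an antigen receptor signal leave quiescence and divide. In each division Cdk1 with its B-type cyclins starts mitosis, the kinetochore joins each centromere to spindle microtubules, and the spindle checkpoint holds back the anaphase-promoting complex (APC/C) until all chromosomes are attached. Most of these genes are transcribed late in the cell cycle, when the MYBL2 (B-MYB) and FOXM1 factors act on promoters that carry a cell cycle homology region, a short element also bound by the repressive DREAM complex, often beside CCAAT boxes for the factor NF-Y.

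Promoter sequence was matched by symbol to a set of RefSeq promoters for 46 of the 55 genes (GRCm38.p6, 250 bases before to 50 bases after the annotated start). The other 9 genes were absent from this set, which did not cover every RefSeq gene. The letters TTTGAA, the core of the cell cycle homology region, were present on either strand in 33 of the 46 promoters (71.7%), against 15.0% of the 10538 genes tested below that have a promoter in this set and 20.2% of all 27025 genes that have one. CCAAT was present in 36 of the 46 (78.3%), against 43.2% and 41.1%. Both stood in the same promoter for 29 of the 46 (63.0%), against 6.31% and 7.97%. The E2F forms TTTGGCGC and TTTCCCGC were each present in 2 of the 46 (4.35%), against 1.08% and 2.28% of the genes tested and 0.585% and 1.24% of all. Matches to different motifs can share letters at their ends, and a match describes the sequence only. The 120 bases before the start are printed 5′ to 3′ on the strand of the gene for 7 genes, to show each arrangement found in this stretch among the 16 genes that are given sample by sample below by the naming rule and have a promoter in this set. Of these 16, 4 had both motifs (Cdk1, Cdc20, Top2a and Kif11, all printed), 1 had TTTGAA alone (Mki67), 7 had CCAAT alone (Ccnb1 is printed) and 4 had neither (Birc5 is printed). Prc1 was counted among the 7 from the first of its annotated starts. Before its other start both motifs lay within the 120 bases. Capitals mark TTTGAA or CCAAT, or their reverse complements TTCAAA and ATTGG.
Cdk1 (chr10:69352913-69353032, minus strand): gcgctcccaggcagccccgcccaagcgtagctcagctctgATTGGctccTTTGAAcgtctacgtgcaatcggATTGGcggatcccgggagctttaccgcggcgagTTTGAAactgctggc
Cdc20 (chr4:118437344-118437463, minus strand): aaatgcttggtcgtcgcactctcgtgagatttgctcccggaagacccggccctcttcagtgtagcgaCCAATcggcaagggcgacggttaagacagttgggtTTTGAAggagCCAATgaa
Top2a (chr11:99024190-99024309, minus strand): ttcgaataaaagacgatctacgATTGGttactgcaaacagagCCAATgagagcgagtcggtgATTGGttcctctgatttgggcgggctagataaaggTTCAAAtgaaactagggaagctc
Kif11 (chr19:37376262-37376381, plus strand): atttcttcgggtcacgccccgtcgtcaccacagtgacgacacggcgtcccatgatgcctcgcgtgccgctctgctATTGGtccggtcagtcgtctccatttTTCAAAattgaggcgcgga
Mki67 (chr7:135716380-135716499, minus strand): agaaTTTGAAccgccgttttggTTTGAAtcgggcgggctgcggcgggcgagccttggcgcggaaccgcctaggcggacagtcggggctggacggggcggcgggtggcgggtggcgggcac
Ccnb1 (chr13:100786487-100786606, minus strand): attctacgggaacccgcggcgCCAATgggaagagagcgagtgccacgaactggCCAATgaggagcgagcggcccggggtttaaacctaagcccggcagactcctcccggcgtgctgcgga
Birc5 (chr11:117849117-117849236, plus strand): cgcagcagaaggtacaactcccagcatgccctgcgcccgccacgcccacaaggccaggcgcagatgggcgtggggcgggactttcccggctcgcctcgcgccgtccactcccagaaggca

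Between 43402632 and 64290105 reads were counted per sample, and all 55 genes had an FPKM (fragments per kilobase of transcript, scaled to library size) of at least 0.5 in each of the 12 samples. Mean levels in Control ran from 5.33 FPKM for Cenpf to 116 FPKM for Top2a, with a median of 20.6. The median coefficient of variation over the 55 genes was 3.71% in Control, 4.14% in the metformin group, 4.95% under FK506 and 9.34% under both drugs. Within groups some samples lay to one side over the set: metformin replicate 2 was the highest of its 3 for 47 of the 55 genes, Control replicate 2 the highest of its 3 for 38 and Control replicate 1 the lowest for 35. All 12 T cell markers were expressed and summed to 2552 to 2615 FPKM in Control, 2379 to 2502 in the metformin group, 2183 to 2293 under FK506 and 2322 to 2424 under both drugs. With FK506 against Control, 8 of these 12 were called lower and 4 higher (median log2 fold change -0.44), from Thy1 (-1.37) and Cd2 (-1.21) to Cd4 (0.29). B cell and myeloid markers rose in the FK506 samples. The 10 B cell markers summed to 62.9 to 66.9 FPKM in Control, 87.2 to 101.8 in the metformin group, 886 to 926 under FK506 and 427 to 458 under both drugs. The 10 myeloid markers summed to 6.52 to 6.69, 8.98 to 10.2, 1367 to 1419 and 925 to 1046 FPKM in the same order, and the macrophage genes C1qa and C1qc were listed at 0 in every Control and metformin sample. The 5 CD8 T and NK cell markers summed to 9.06 to 9.74, 13.2 to 13.9, 7.27 to 8.55 and 8.13 to 10.1 FPKM, and the 6 erythroid markers to 2.00 to 2.08, 0.512 to 0.700, 0.838 to 1.35 and 1.601 to 2.36 FPKM. Both sums were lower with FK506 than in Control without overlap, but the genes within each list did not move together. With FK506 mean Cd8b1 fell from 7.90 to 5.44 FPKM, while Klrb1c rose from 0 to 0.329. Mean Epor fell from 1.78 to 0.236 FPKM, while Hbb-bs rose from 0 to 0.500. Of the 55 genes, 11 overlap another protein-coding gene in RefSeq (among them Cdc20 with Elovl1, Prc1 with Rccd1 and Foxm1 with Tex52), and whether strand was used in counting was not given in the sources used here. In bulk RNA, fewer cells of a type and less RNA per cell cannot be told apart.

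FK506 lowered nearly the whole set. Against Control, 54 of the 55 genes were lower and 1, the condensin gene Smc4, was higher, by edgeR's quasi-likelihood test with a p-value adjusted over all genes tested (Benjamini-Hochberg) under 0.05. Of the 15197 genes tested, 39.6% were called lower and 41.3% higher. The median log2 fold change of the 55 genes was -1.82, against 0.024 over all genes tested, and 52 of them were lower by at least 1 on the log2 scale. For each of the 54 lower genes, all 3 FK506 samples lay below all 3 Control samples, as they did for 32.9% of all genes tested. The deepest falls were those of Ncapg (log2 fold change -2.62), Melk (-2.50) and Anln (-2.46), and the shallowest those of Kif23 (-0.86) and Incenp (-0.80). The share of all counts that fell on the 55 genes went from 0.512 to 0.542% in Control to 0.217 to 0.221% with FK506.

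The B cell and myeloid markers moved with this result: all 10 of each list were called higher with FK506 than in Control. Their part in the fall was not tested. When the library sizes were replaced by the summed counts of the 12 T cell markers, the same 55 genes were called in the same directions, and the median log2 fold change was -1.43, while that of all genes tested moved up by 0.39. The summed level of the 54 genes other than Smc4 was 52.7 to 55.9% of the summed level of the T cell markers in Control and 20.6 to 21.5% with FK506.

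**Figure D1:**
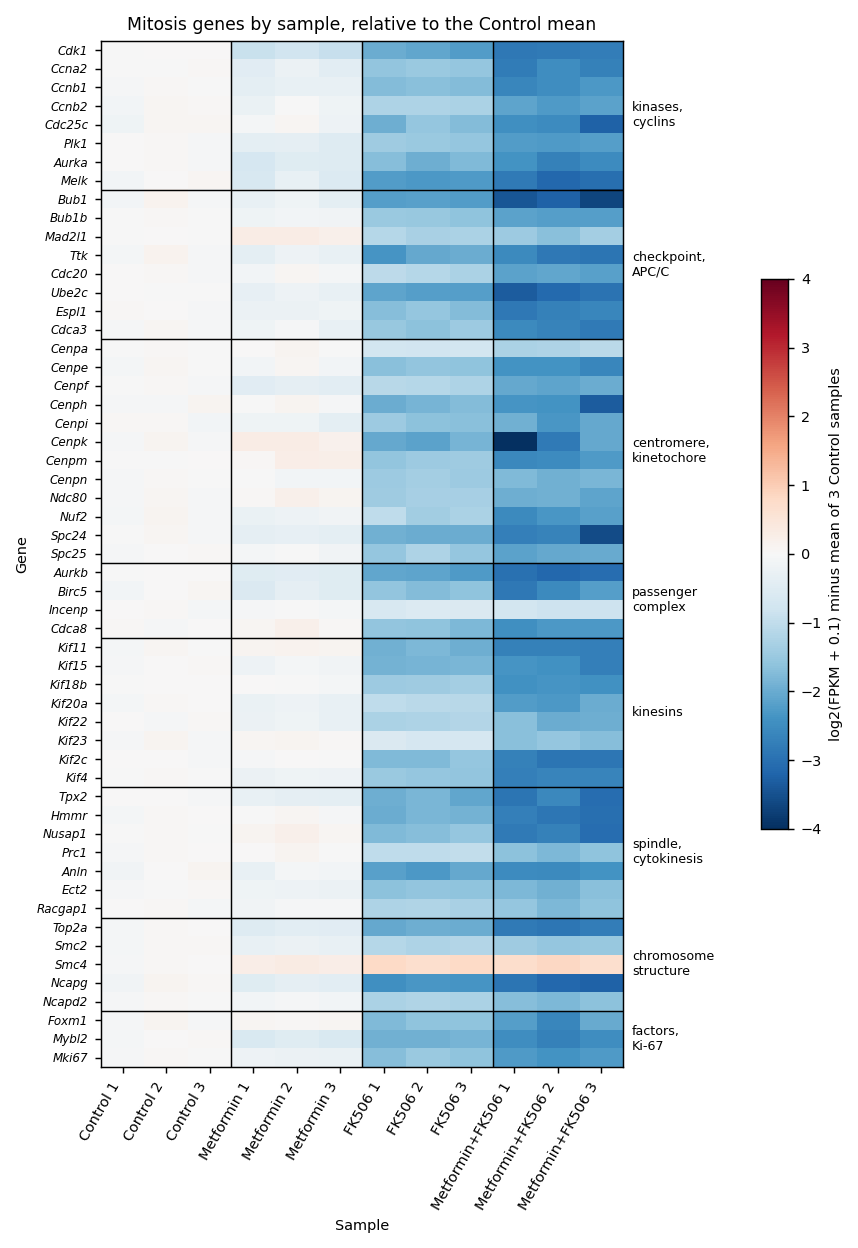
Level of each of the 55 genes (rows, grouped by role) in each of the 12 samples (columns), as log2(FPKM + 0.1) minus the mean of the 3 Control samples, where blue is lower and red is higher. The FK506 and Metformin+FK506 columns are blue for every gene but Smc4, and the metformin columns are pale.

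Among the kinases, cyclins and their switches, all 8 genes were lower with FK506, with a median log2 fold change of -1.97. Cdk1, the kinase that drives entry into mitosis, had FPKM values of 22.0, 22.6 and 22.6 in Control, 12.1, 13.2 and 11.8 in the metformin group, 5.57, 5.27 and 4.64 under FK506 and 2.97, 3.04 and 3.18 under both drugs. No group overlapped another, and each drug alone and the combination lay below Control. Its log2 fold change was -2.33 ± 0.062 (adjusted p = 3.0e-15) with FK506, -0.89 ± 0.058 (adjusted p = 1.9e-09) with metformin and -3.06 ± 0.065 (adjusted p = 2.0e-16) with the combination, each against Control with the standard error of the fit. Ccnb1, cyclin B1, had 30.9, 33.3 and 31.9 in Control, 24.4, 26.2 and 25.8 in the metformin group, 9.56, 10.0 and 9.46 under FK506 and 5.20, 5.67 and 6.41 under both drugs. The 4 groups were again separate, in the order Control, metformin, FK506, combination, and the log2 fold change was -1.94 ± 0.062 (adjusted p = 3.0e-14) with FK506. Plk1, the polo-like kinase of centrosomes, kinetochores and cytokinesis, had 28.9, 29.5 and 27.5 in Control, 21.8, 22.1 and 19.9 in the metformin group, 10.7, 10.1 and 9.72 under FK506 and 5.97, 5.88 and 6.18 under both drugs. Its groups followed the same order without overlap, with -1.70 ± 0.054 (adjusted p = 3.1e-14) under FK506. Of the other 5 genes, Melk, a kinase named for its maternal and embryonic expression, fell furthest with FK506 (-2.50) and Ccnb2, cyclin B2, least (-1.46).

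The checkpoint, APC/C and separase genes (8) were all lower with FK506 as well, with a median of -1.82. Bub1b, which encodes the checkpoint kinase BubR1, had 25.2, 26.5 and 25.2 in Control, 22.8, 23.6 and 23.3 in the metformin group, 9.19, 8.98 and 8.27 under FK506 and 5.69, 5.53 and 5.55 under both drugs. The 4 groups did not overlap, and FK506 gave -1.76 ± 0.044 (adjusted p = 1.4e-15). Cdc20, the activator that the checkpoint restrains on the APC/C, had 28.8, 29.5 and 27.8 in Control, 26.7, 30.5 and 27.0 in the metformin group, 13.8, 13.1 and 11.9 under FK506 and 6.50, 6.70 and 6.27 under both drugs. Here the Control and metformin samples overlapped, and both groups lay far above the other two. Its log2 fold change was -1.36 ± 0.064 (adjusted p = 5.0e-12) with FK506 and -0.063 ± 0.061 (adjusted p = 0.40) with metformin. Bub1, a checkpoint kinase of the kinetochore, reached the lowest value of the set against Control with the combination, at -3.70 ± 0.10, next to Ncapg (-3.34) and Ube2c (-3.33), the ubiquitin-conjugating enzyme of the APC/C. Espl1, the separase that cleaves cohesin, fell from 10.7 ± 0.337 FPKM (SD, n = 3) in Control to 3.32 ± 0.210 with FK506 and 1.55 ± 0.145 with the combination.

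All 12 centromere and kinetochore genes were lower with FK506, with a median of -1.68. Cenpa, the histone H3 variant that marks the centromere, had 48.0, 49.3 and 47.5 in Control, 48.9, 52.3 and 48.1 in the metformin group, 29.2, 28.1 and 29.2 under FK506 and 19.9, 20.5 and 22.8 under both drugs. The metformin and Control samples overlapped, and the FK506 and combination samples formed separate lower levels. At -1.002 ± 0.052 (adjusted p = 2.2e-11) with FK506 and -1.37 ± 0.054 (adjusted p = 4.5e-13) with the combination, Cenpa fell least of the 12. Cenpe, the kinesin-like motor of the kinetochore, had 10.9, 12.05 and 11.4 in Control, 10.6, 12.1 and 10.5 in the metformin group, 3.55, 3.76 and 3.66 under FK506 and 2.11, 2.09 and 1.80 under both drugs. It fell by more than Cenpa, to 17.5% of the Control mean with the combination, although its Control and metformin samples overlapped. Its log2 fold change with FK506 was -1.86 ± 0.067 (adjusted p = 1.5e-13). Ndc80, which binds microtubules at the outer kinetochore together with Nuf2, Spc24 and Spc25, had 20.1, 21.8 and 19.8 in Control, 21.2, 23.9 and 22.3 in the metformin group, 7.58, 8.10 and 8.13 under FK506 and 5.21, 5.37 and 4.66 under both drugs. The Control and metformin samples overlapped, and with FK506 the log2 fold change was -1.59 ± 0.067 (adjusted p = 1.3e-12). Its 3 partners were lower too, with log2 fold changes of -1.44 (Nuf2), -2.19 (Spc24) and -1.67 (Spc25). Cenpk, of the inner kinetochore, was the least evenly measured gene of the set, with 0.526, 1.49 and 2.67 FPKM in the combination samples, which came from 38, 149 and 166 reads.

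The chromosomal passenger complex corrects faulty attachments and later guides cytokinesis. Its kinase Aurkb had FPKM values of 41.9, 43.2 and 42.95 in Control, 30.2, 31.0 and 30.5 in the metformin group, 9.97, 9.87 and 8.80 under FK506 and 5.29, 4.76 and 5.03 under both drugs. Its 4 groups were separate and fell in the order Control, metformin, FK506, combination, with -2.37 ± 0.051 (adjusted p = 2.3e-16) for FK506. Birc5 (survivin), which brings the complex to the centromere, had 36.5, 39.7 and 41.5 in Control, 25.9, 30.6 and 27.8 in the metformin group, 13.0, 11.6 and 12.9 under FK506 and 5.35, 6.67 and 8.38 under both drugs. The order was the same, again without overlap, with -1.68 ± 0.081 (adjusted p = 7.2e-12) for FK506. The scaffold subunit Incenp changed least of the lower genes, at -0.80 ± 0.044 (adjusted p = 4.0e-11) with FK506 and -1.01 ± 0.044 (adjusted p = 2.2e-12) with the combination, while Cdca8 (borealin) had -1.87 and -2.54. The subunits of this complex thus differed in the size of the change, from 1.74-fold for Incenp to 5.15-fold for Aurkb with FK506.

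All 8 kinesins were lower with FK506, with a median of -1.70. Kif11 (Eg5), which pushes spindle poles apart, had 40.8, 45.1 and 42.7 in Control, 46.1, 47.6 and 45.7 in the metformin group, 11.3, 12.1 and 11.03 under FK506 and 6.48, 6.52 and 6.32 under both drugs. All 3 metformin samples lay above all 3 Control samples, but this difference did not pass the test (log2 fold change 0.086 ± 0.043, adjusted p = 0.10). It passed in 4 alternatives: limma on log2(FPKM + 1) (adjusted p = 0.047) and on quantile normalized values (0.0020), T cell marker scaling (9.4e-04), and edgeR without Control replicate 2 (0.034). With FK506 the log2 fold change was -2.11 ± 0.046 (adjusted p = 2.3e-16) and with the combination -2.92 ± 0.048 (adjusted p = 1.0e-17). Kif20a, a kinesin of the central spindle in cytokinesis, had 15.5, 16.6 and 16.6 in Control, 13.6, 14.1 and 13.1 in the metformin group, 7.94, 7.61 and 7.53 under FK506 and 3.40, 3.23 and 4.05 under both drugs. Its groups stood apart, from Control down to the combination, and its log2 fold change was -1.28 ± 0.062 (adjusted p = 7.7e-12) with FK506. Kif23, the motor subunit of centralspindlin, fell only from 14.1 ± 0.912 FPKM in Control to 9.07 ± 0.373 with FK506, and to 4.47 ± 0.237 with the combination.

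The 7 spindle and cytokinesis genes were all lower with FK506, with a median of -1.88. Prc1, which bundles the microtubules of the central spindle, had 17.1, 18.3 and 17.8 in Control, 18.0, 19.2 and 17.4 in the metformin group, 8.68, 8.68 and 8.92 under FK506 and 5.61, 5.06 and 5.73 under both drugs. Metformin and Control overlapped, and the other groups stood below them, at -1.23 ± 0.054 (adjusted p = 2.1e-12) for FK506. Anln (anillin), a scaffold of the contractile ring, had 6.74, 7.49 and 7.90 in Control, 5.99, 7.01 and 6.79 in the metformin group, 1.57, 1.41 and 1.70 under FK506 and 1.20, 1.17 and 1.34 under both drugs. The FK506 samples lay just above the combination samples for this gene. Its fall with FK506 was among the deepest (-2.46 ± 0.090, adjusted p = 2.0e-13), and the further difference between the combination and FK506 did not pass the test (-0.26 ± 0.097, adjusted p = 0.056), although it passed in 8 of 23 alternatives, among them DESeq2 (adjusted p = 0.030), T cell marker scaling (0.0094) and 3 of the 12 fits without single samples. Nusap1 and Hmmr, both microtubule-binding proteins of the spindle, had log2 fold changes of -1.88 and -2.15 with FK506.

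Of the 3 genes for transcription factors and the proliferation antigen, Foxm1, an activator of G2 and M phase genes, had 18.1, 20.3 and 18.3 in Control, 19.8, 19.4 and 20.1 in the metformin group, 5.45, 6.12 and 6.14 under FK506 and 3.98, 3.02 and 4.62 under both drugs. Metformin and Control overlapped for Foxm1, and FK506 gave -1.90 ± 0.095 (adjusted p = 1.2e-11). Mybl2, the B-MYB subunit that acts before FOXM1 at the same promoters, had 15.5, 16.3 and 16.9 in Control, 10.5, 11.4 and 10.7 in the metformin group, 4.16, 4.17 and 4.41 under FK506 and 2.81, 2.39 and 2.80 under both drugs. For Mybl2, metformin alone was lower than Control, with -0.58 ± 0.061 (adjusted p = 5.1e-07), and FK506 gave -2.17 ± 0.065 (adjusted p = 1.5e-14). Mki67, which encodes the Ki-67 antigen of dividing cells, had 53.3, 56.5 and 53.7 in Control, 47.1, 46.4 and 45.1 in the metformin group, 16.8, 19.3 and 17.9 under FK506 and 11.3, 10.4 and 11.2 under both drugs. All 4 groups of Mki67 were separate, and its log2 fold change was -1.82 ± 0.047 (adjusted p = 2.0e-15) with FK506 and -2.52 ± 0.048 (adjusted p = 5.5e-17) with the combination.

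Condensin, the ring complex that compacts mitotic chromosomes, split in its RNA levels. Its subunit Smc4 had 63.0, 66.6 and 65.6 in Control, 78.8, 81.7 and 78.0 in the metformin group, 113, 104 and 112 under FK506 and 106, 115 and 105 under both drugs. Smc4 was thus higher with each drug than in Control, without overlap, and the FK506 and combination samples overlapped. Its log2 fold change was 0.57 ± 0.047 (adjusted p = 8.3e-09) with FK506, 0.28 ± 0.047 (adjusted p = 8.2e-05) with metformin and 0.57 ± 0.047 (adjusted p = 8.2e-09) with the combination. Its ATPase partner Smc2 had 21.5, 23.4 and 23.3 in Control, 18.6, 19.3 and 18.5 in the metformin group, 10.2, 9.69 and 9.95 under FK506 and 8.42, 7.63 and 7.91 under both drugs. Smc2 moved the opposite way, with 4 separate groups and a log2 fold change of -1.41 ± 0.044 (adjusted p = 2.6e-14) with FK506. The condensin I subunits Ncapg and Ncapd2 were lower too, at -2.62 ± 0.068 (adjusted p = 2.2e-15) and -1.47 ± 0.042 (adjusted p = 7.6e-15). Top2a, the topoisomerase that disentangles sister chromatids, had 111, 121 and 118 in Control, 81.9, 86.6 and 84.2 in the metformin group, 28.0, 29.8 and 29.1 under FK506 and 16.2, 15.6 and 16.9 under both drugs. It was 4.66-fold lower with FK506 (-2.22 ± 0.042, adjusted p = 4.7e-17) and 8.20-fold lower with the combination. Smc4 lies on chromosome 3, from 69004738 to 69034623 (GRCm38.p6), and its span holds the microRNA genes Mir15b and Mir16-2. Whether reads from the microRNA genes were counted for Smc4 was not examined.

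**Figure D2:**
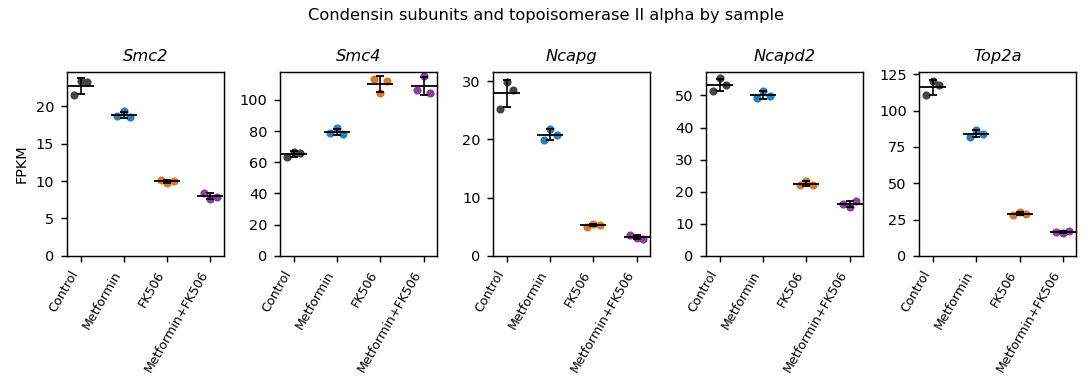
FPKM of 4 condensin subunits and of Top2a in each sample (points) by group, with the mean (long line) and SD (bars, n = 3), each panel on its own axis from 0. Smc4 is near 65 FPKM in Control and near 110 with FK506, while the other 4 genes fall from left to right.

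Metformin alone changed the set less evenly. Against Control, 31 of the 55 genes were lower, 2 were higher and 22 did not pass the test, and no change reached 1 on the log2 scale. Over all genes tested, 27.4% were called lower and 28.6% higher. The median of the 55 genes was -0.19, against 0.011 over all genes tested. The largest falls were in Cdk1 (-0.89), in Aurka, the spindle pole kinase (-0.59), and in Mybl2 (-0.58). Smc4 and Mad2l1, the checkpoint protein that binds Cdc20, were higher, the latter at 0.23 ± 0.063 (adjusted p = 0.0059) with 30.4, 31.0 and 30.5 FPKM in Control and 37.3, 38.0 and 35.2 with metformin. Next in rank came Cenpk (0.18 ± 0.25, adjusted p = 0.57), which did not pass. By role, the lower genes were 7 of the 8 kinases and cyclins (median -0.43), 6 of the 8 checkpoint genes (median -0.22), 4 of the 5 chromosome structure genes (median -0.30), 2 of the 4 passenger complex genes (median -0.29) and 2 of the 3 factors and antigen (median -0.27). They were 4 of the 8 kinesins (median -0.12), 4 of the 12 centromere and kinetochore genes (median -0.084) and 2 of the 7 spindle and cytokinesis genes (median -0.10). Differences between roles were not tested.

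These calls depended on the scaling more than those with FK506. With library sizes set by the T cell markers, 19 genes were lower and 8 higher, with a median of -0.068, and Cdca8, Cenpa, Kif11, Kif23, Ndc80 and Nusap1 joined Smc4 and Mad2l1 among the higher genes. The B cell markers moved with metformin alone as well, with 8 of 10 called higher and 1 lower (median 0.51), and all 3 CD8 T and NK cell markers that could be tested were higher. Their part in the result was not tested. Leaving out single samples gave between 23 and 32 lower genes, with 23 without Control replicate 2 and 30 without metformin replicate 2, and ended the call of Ccnb2, Cdca3, Cenpi, Kif15, Ncapd2, Nuf2, Spc24 or Ttk.

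**Figure D3:**
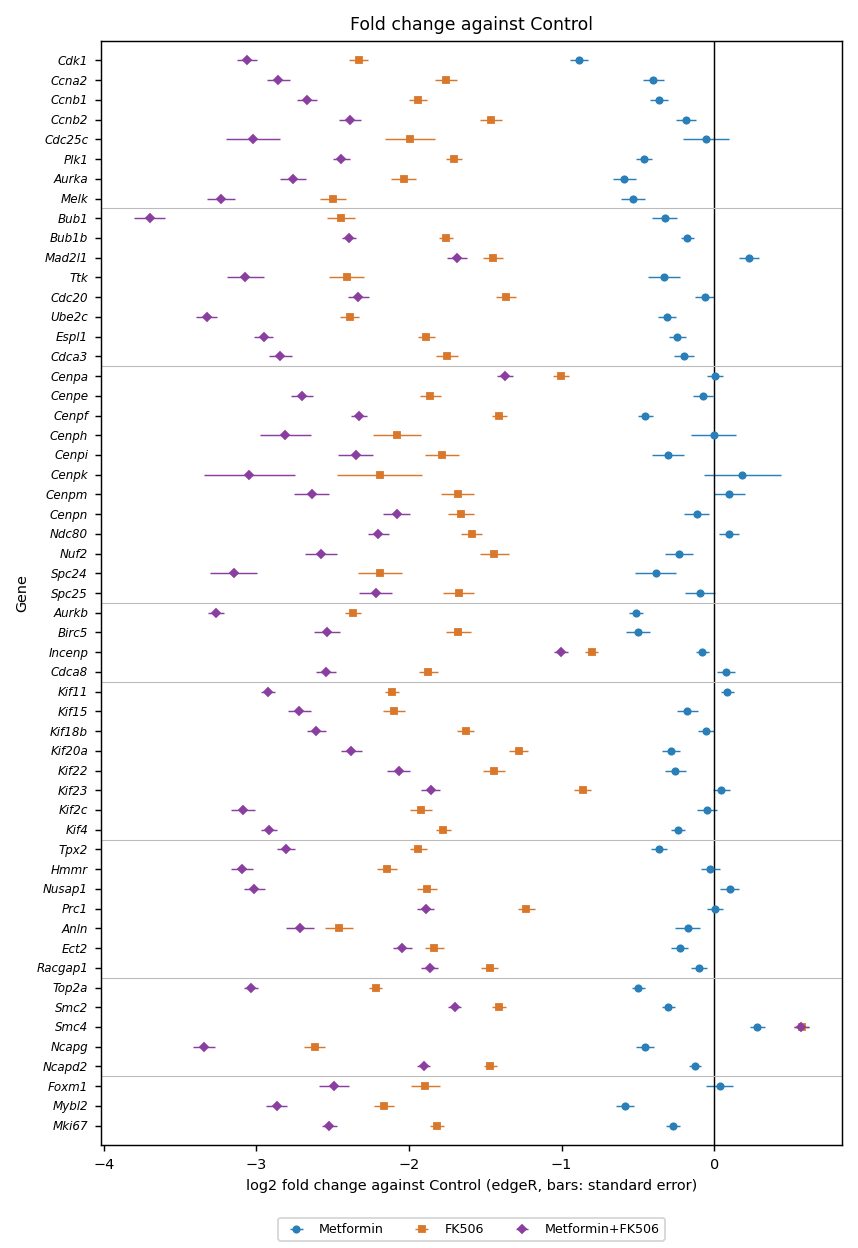
Log2 fold change against Control of each gene (rows, by role) with metformin (circles), FK506 (squares) and the combination (diamonds), with the standard error of the edgeR fit as bars. The diamonds lie left of the squares for every gene but Smc4, where they coincide at 0.57, and the circles lie between -0.89 and 0.28.

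Adding metformin to FK506 lowered the set further. The combination against FK506 alone gave 53 lower genes, 0 higher and 2 that did not pass, against 15.0% of all genes tested called lower and 15.6% called higher. At an unadjusted p under 0.05, 0 genes were higher, and DESeq2 and limma called 0 higher too. The median was -0.73, against 0.0019 over all genes tested, and 10 genes were lower by at least 1. Bub1 fell furthest (-1.25 ± 0.10, adjusted p = 1.6e-07, from 3.75, 3.87 and 3.71 to 1.55, 1.77 and 1.28 FPKM), followed by Kif2c (-1.17), a kinesin that takes microtubules apart, and Kif4 (-1.14), a kinesin of the chromosome arms. For these genes all combination samples lay below all FK506 samples. The smallest differences were those of Smc4 (-0.00059 ± 0.047, adjusted p = 0.996), Incenp (-0.20 ± 0.045, adjusted p = 0.0024) and Ect2 (-0.21 ± 0.063, adjusted p = 0.018), the last an activator of the RhoA switch of cytokinesis. Among the genes called lower, Cenpk was the least secure, since its groups overlapped (-0.85, adjusted p = 0.0496) and its call ended when any of 11 of the 12 samples was left out. Mad2l1 and Ect2 lost their calls when FK506 or combination samples were left out, for Mad2l1 FK506 replicate 1 (adjusted p = 0.080) and combination replicate 2 (0.067), and for Ect2 FK506 replicate 2 (0.057) and combination replicate 2 (0.065).

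The B cell markers moved with this result too. All 10 were called lower in the combination than with FK506 alone, with a median of -0.99, whereas 3 of the 10 myeloid markers were higher and 2 lower, and of the 12 T cell markers 6 were higher and 3 lower. The part of these cells was not tested. Scaled to the T cell markers, 54 of the 55 genes were lower with a median of -0.84, and 53 of them were those called without this scaling. The summed level of the 54 genes other than Smc4 was 11.98 to 12.11% of that of the T cell markers in the combination.

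Against Control, the combination lowered 54 genes and raised Smc4, beside 39.6% of all genes tested called lower and 42.1% higher. The median was -2.64, and 54 genes were lower by at least 1. It was -2.36 when scaled to the T cell markers and -2.03 by limma on log2(TPM + 1), where that of FK506 alone was -1.31. For 43 genes the mean FPKM was under 25% of the Control mean, against 10 with FK506 alone. Against metformin, the combination again lowered 54 genes and raised Smc4 (0.29 ± 0.047, adjusted p = 3.2e-05), beside 37.9% and 40.3% of all genes, with a median of -2.35 (-1.76 on TPM). Here Bub1 (-3.37), Cenpk (-3.23) and Nusap1 (-3.11) fell furthest, and Smc4, Incenp (-0.93) and Cenpa (-1.37) lay at the other end. All 10 B cell and all 10 myeloid markers were higher in the combination than in Control (medians of 2.71 and 11.99) and than with metformin, and their part in these results was not tested. These comparisons share samples with those above. Ordered by mean FPKM, 41 genes followed the order Control, metformin, FK506, combination, 13 had metformin first and Control next, and Smc4 alone ran from FK506 through the combination and metformin to Control, although its FK506 and combination samples did not differ beyond their spread. Of the 13, only Mad2l1 was called higher with metformin than in Control.

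Whether the effect of metformin depended on FK506 was tested as the interaction of the drugs. A negative interaction means that the log2 fold change by metformin was lower in the presence of FK506 than without it. It was negative for 45 of the 55 genes and positive for 0, and 10 did not pass, against 24.0% of all genes tested called negative and 22.5% positive. At an unadjusted p under 0.05, 0 genes were positive, as by DESeq2, and limma on log2(TPM + 1) called 1, Cdk1. The median interaction was -0.47, against -0.020 over all genes tested. Nusap1 (-1.23 ± 0.092, adjusted p = 1.7e-08), Kif2c (-1.12 ± 0.10, adjusted p = 2.5e-07) and Cenpm (-1.06 ± 0.16, adjusted p = 3.7e-05), of the inner kinetochore, had the most negative values. Nusap1 had 32.4, 34.4 and 32.5 in Control, 35.8, 38.0 and 35.2 in the metformin group, 9.77, 10.0 and 11.2 under FK506 and 4.53, 5.01 and 3.89 under both drugs. Without FK506 all 3 metformin samples lay above Control, though by too little to pass the test (0.10 ± 0.060, adjusted p = 0.17), and in its presence all 3 samples with metformin lay below all 3 without (-1.13 ± 0.070, adjusted p = 7.0e-09). Kif11 had the same arrangement, with 0.086 ± 0.043 without FK506 and -0.81 ± 0.047 with it. All 8 kinesins were called (median -0.90), 11 of 12 centromere and kinetochore genes (median -0.64) and 7 of 8 checkpoint genes (median -0.72). The counts were 5 of 7 spindle and cytokinesis genes (median -0.50), 2 of 3 factors and antigen (median -0.43), 3 of 4 passenger complex genes (median -0.37), 5 of 8 kinases and cyclins (median -0.32) and 4 of 5 chromosome structure genes (median -0.28), and roles were not compared by a test.

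The 10 genes whose interaction did not pass were Anln, Aurka, Cdk1, Cenpi, Ect2, Incenp, Melk, Mybl2, Smc2 and Ttk. Cdk1 fell by 0.89 with metformin alone and by 0.73 in the presence of FK506, with an interaction of 0.16 ± 0.088 (adjusted p = 0.16). Ect2 (0.016 ± 0.085) and Smc2 (0.011 ± 0.062) stood nearest to 0. A value that misses the threshold does not show that metformin acted equally in both settings. Scaled to the T cell markers, the interaction was negative for 52 genes, including 7 of these 10, with a median of -0.70, and that of all genes tested moved down by 0.23. The B cell markers had an interaction in the same direction, negative for 9 of 10 with a median of -1.60, and its part in the result was not tested. Calls with little margin were those of Cenpk, Cenpn, Ncapg, Spc24 and Spc25, which ended when 1 to 11 single samples were left out in turn. The call of Birc5 ended in each of the 4 limma fits on FPKM or TPM values (adjusted p of 0.064 to 0.16), that of Racgap1 on TPM (0.051) and that of Cenpf on quantile normalized FPKM (0.081).

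**Figure D4:**
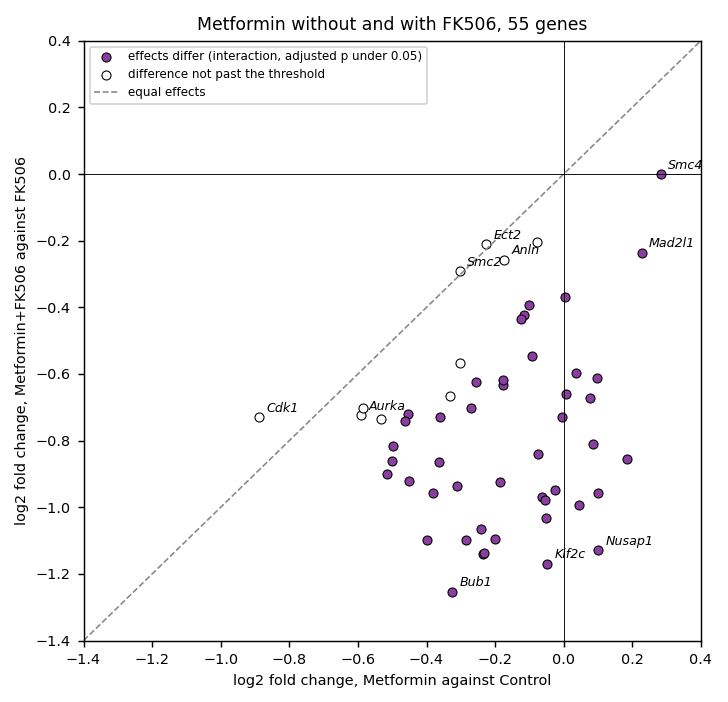
Log2 fold change by metformin without FK506 (x axis, Metformin against Control) and with it (y axis, Metformin+FK506 against FK506) for the 55 genes, with filled points where the interaction passed the threshold and a dashed line of equal effects. All points lie below the line except Cdk1, Ect2 and Smc2, which lie slightly above it.

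Across the 55 genes, the effect of metformin without FK506 and with it, which share no samples, had a Pearson correlation of 0.20 (Spearman 0.14, n = 55 genes measured in the same libraries), and 0.11 without Smc4. The effect of FK506 without metformin and with it had 0.84 (Spearman 0.75), and 0.75 without Smc4. Genes are not independent replicates, and the values are a description.

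Other cell cycle genes were read as 5 lists beside the 55. Of 63 other mitosis genes, FK506 lowered 57 and raised 2 (median -1.46), beside 39.6% and 41.3% of all genes tested, with Cenpw (-3.17), Oip5 (-2.75) and Kntc1 (-2.52), all of the centromere or kinetochore, at the bottom, and Zw10 (0.38) and Mis12 (0.17) higher. Metformin added to FK506 lowered 40 and raised 3 of them (median -0.43), beside 15.0% and 15.6%, among them Cdkn3 (-1.61) and Spdl1 (0.75). Against the same shares, all 20 S phase genes were lower with FK506 (median -1.55), led by Gins2 (-2.54) and Mcm10 (-2.40) of the replication machinery, and 15 of 20 were lower again with the combination against FK506 (median -0.46). Their interaction was negative for 5 of 20 and positive for 4 (median -0.064), near the 24.0% and 22.5% of all genes tested.

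The G1 list of 15 genes held cyclins, CDKs and E2F factors together with Cdc25a, a phosphatase that activates CDKs, and Myc, a growth-promoting transcription factor. FK506 lowered 14 of them (median -1.64), beside 39.6% of all genes tested, led by Myc (-2.87), and Ccnd1, cyclin D1, was higher, from 0.0248, 0.0341 and 0.0696 FPKM in Control to 4.38, 4.46 and 4.52 with FK506. All 10 B cell and all 10 myeloid markers rose in the same comparison, and their part in the rise of Ccnd1 was not tested. In the combination 10 of the 15 were lower than with FK506 (median -0.26), beside 15.0% of all genes tested, and their interaction was positive for 8 and negative for 2, beside the 22.5% and 24.0% of all genes tested. Of the 15 cell cycle inhibitors, 7 were higher with FK506, led by Cdkn2b (5.17), Cdkn2a (2.02) and Btg2 (1.37), and 4 were lower, including Cdkn2d (-2.59) and Cdkn1a (-1.30), where 41.3% and 39.6% of all genes tested were called. The 21 core APC/C and cohesin genes, which act beside the 55 in mitosis but are expressed through the cycle, changed by less than 1 on the log2 scale: FK506 lowered 16 and raised 2 (median -0.31), beside 39.6% and 41.3% of all genes tested, and the combination against FK506 lowered 0 and raised 1, beside 15.0% and 15.6%, namely Nipbl, the cohesin loader (0.22 ± 0.041, adjusted p = 6.9e-04).

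**Figure D5:**
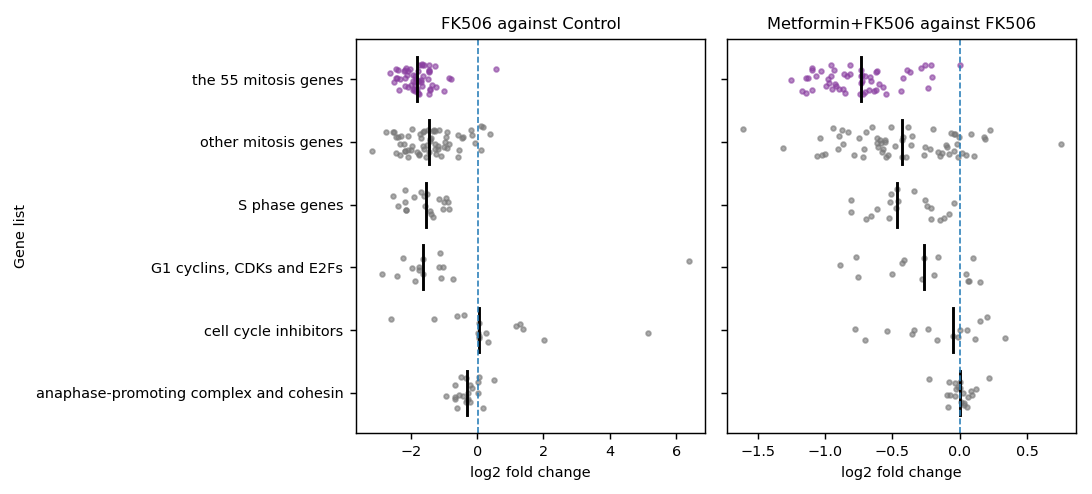
Log2 fold changes of the genes (points) of the 55-gene set and of 5 other cell cycle lists with FK506 against Control (left) and with the combination against FK506 (right), with the median of each list as a bar and the median of all genes tested as a dashed line. The 55 genes have medians of -1.82 and -0.73, and the APC/C and cohesin genes -0.31 and 0.0024.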

How the data were processed

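RNA was sequenced from 12 CD4+ T cell samples, 3 in each of 4 groups, which were taken from the sample labels. The deposited table lists 45777 genes by NCBI gene ID with a read count, FPKM and TPM for each sample, and 0 columns of per-sample values were set aside. The raw counts, the FPKM values (scaled by transcript length and library size) and the TPM values (scaled to a fixed sum per sample) were made by the authors. The submitters' processing notes name bcl2fastq 2.20.0, Trimmomatic, HISAT2 2.1.0 and StringTie 2.1.3b with build mm10, and how multi-mapped reads and strand were treated was not given in the sources used here.

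Genes that reached 0.5 FPKM in 3 or more samples were kept (15197). Counts were scaled by TMM and fitted in 1 model of the 4 groups (8 residual degrees of freedom) with edgeR 4.0.16 in R 4.3.3, quasi-likelihood, two-sided, with Benjamini-Hochberg adjustment over all genes tested and a threshold of 0.05. Standard errors were derived from the fold change and its F statistic. Every adjusted p-value printed comes from this fit unless another is named. The interaction was the log2 fold change by metformin with FK506 minus that without it. Alternatives used DESeq2 1.42.0, limma 3.58.1 on log2 FPKM or TPM (the TPM fit was added after the table was seen), other filters and scalings, a replicate block, and leaving out each sample. The fit was tested on simulated data. Replicate counts differed by more than sampling noise (chi-square per degree of freedom of at least 4.10), so no library was counted as a repeat.

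The 55 genes, the other lists and the tests were chosen with earlier results of these data known. Genes were named by a rule: a panel of 19 with values in every sample, the 3 highest and 3 lowest fold changes per comparison, genes called against the majority, genes not called where these were at most 10, and at most 3 per direction from other lists. Further genes (such as Espl1, Cdca8, Hmmr and the partners of Ndc80) were named by role after their values were seen. Promoters came from a set of RefSeq GRCm38.p6 promoters that held 46 of the 55 genes.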

Additional observations from a re-analysis of the deposited data

Results flagged for a closer look

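The effect of metformin differed between cultures with and without FK506 for 45 of the 55 genes by the interaction term of the edgeR fit, each with a lower log2 fold change when FK506 was present, where 24.0% of all genes tested were called in this direction and 22.5% in the other. Among the panel of 19 genes chosen for their place in mitosis, 15 were in this number. The difference, as log2 fold change with FK506 minus that without it, was -0.37 for Ccnb1 and -0.28 for Plk1 among the kinases and cyclins, and -0.46 for Bub1b and -0.90 for Cdc20 among the checkpoint genes. At the centromere and kinetochore it was -0.37 for Cenpa, -0.76 for Cenpe and -0.71 for Ndc80, and in the passenger complex -0.38 for Aurkb and -0.36 for Birc5, whose call ended in each of the 4 limma fits. The kinesins Kif11 and Kif20a had -0.90 and -0.81, Prc1 of the central spindle had -0.67, and Top2a had -0.32. Foxm1 had -0.63 and Mki67 -0.43. Of the 10 B cell markers, 9 had a negative interaction as well (median -1.60), and their part in this result was not tested.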

How the results depend on the processing

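The 54 lower genes and Smc4 as the higher gene were called in FK506, combination against Control and combination against metformin when any single sample was left out (54 to 54 lower and 1 to 1 higher). The same leave-outs gave 23 to 32 lower and 2 to 3 higher genes for metformin alone, 50 to 54 lower and 0 to 0 higher for the combination against FK506, and 41 to 47 negative and 0 to 0 positive for the interaction. With a log2 fold change of at least 1 also required, 0 genes were higher in the comparisons of FK506, metformin and the combination with Control and of the combination with metformin, 0 were lower with metformin, 10 were lower in the combination against FK506, and 5 had a negative interaction. For metformin alone, limma on quantile normalized values called 4 genes higher, and T cell marker scaling called 8 higher and 19 lower. TPM values gave 1 positive interaction (Cdk1).

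Same-numbered samples did not deviate together over the genes tested (18 pairs, r from -0.12 to 0.069). A shared mouse or culture with a small effect could give such values too, so whether the numbers pair the samples is not known. With the replicate block, lower and higher genes numbered 54 and 1 for FK506, 31 and 2 for metformin, 54 and 1 for the combination against Control, 54 and 0 against FK506, 54 and 1 against metformin, and 44 and 0 for the interaction.

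Log2 values near 0 changed sign. With metformin alone, Cdc20 was 0.012 on quantile normalized values and 0.055 under T cell marker scaling, where Cenpe was 0.043. Cenpa was -0.0089 on TPM, -0.011 with no filter and -0.0070 with only the groups compared, and Prc1 was -0.015, -0.0089 and -0.0049 in the same order. Without single samples Cenpa ran from -0.037 to 0.027 and Prc1 from -0.036 to 0.036. For Smc4, the combination against FK506 was 0.089 on quantile normalized values, 0.015 on TPM, 0.0020 with a mean FPKM of at least 1, and -0.061 to 0.023 without single samples. The interaction of Smc2 was -0.028 and -0.046 on FPKM with pseudocounts of 1 and 0.1, -0.033 on quantile normalized values, -0.21 under T cell marker scaling, and -0.021 to 0.052 without single samples. That of Mybl2 was 0.020 on FPKM, 0.026 on quantile normalized values and 0.037 on TPM, that of Anln 0.014 on quantile normalized values, and that of Cdk1 -0.066 under T cell marker scaling. The cause of these changes was not tested. Beside T cell marker scaling, the median of all genes tested moved by 0.15 to 0.21 on FPKM and 0.44 to 0.46 on TPM in the comparisons with and without FK506.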
